A study of Mus musculus with 12 samples.

Results

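Myoglobin is the haem protein that binds oxygen inside muscle fibers, and 2 of the 55367 gene symbols in the deposited tables belong to its locus. *Mb* encodes the protein, and *Gm49540* is a non-coding RNA gene that meets *Mb* tail to tail on the opposite strand. Both were chosen by their own TPM, a level per transcript length and library, in these samples and by how *Mb* varied with the share of the myosin heavy chain genes *Myh1* and *Myh2*. Their levels, differences and correlations are therefore given as a description, with no test.

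The tables hold 12 RNA libraries of fibers isolated from the extensor digitorum longus (EDL), a fast hindlimb muscle of C57BL/6J mice, with 4 samples in each of 3 groups. The Young fibers came from 3–4-month-old mice. Fibers called Fluo-4 normal or Fluo-4 abnormal came from 26–28-month-old mice and were told apart under a fluorescence stereomicroscope by their staining with Fluo-4, a calcium indicator. All fibers were freed with collagenase, and no transgene or drug is named for any group. How many fibers and mice entered a sample is not given in the sources used here, so p-values measure only the spread between these samples, and a smaller number of *Mb*-rich fibers and less *Mb* RNA per fiber cannot be told apart.

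Myoglobin stores oxygen and eases its passage from the membrane to the mitochondria. It is abundant in slow and oxidative fast fibers and low in type IIb fibers, which rely on glycolysis and carry the *Myh4* myosin. *Myh7* marks type I, *Myh2* type IIa and *Myh1* type IIx fibers. In muscle the *Mb* gene is activated by MEF2 factors, by calcineurin and its NFAT substrates, and by the coactivator PGC-1α, and the protein works only once it holds a haem group with its iron atom.

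In GENCODE vM39 (GRCm39, the build of the deposited values), *Mb* (ENSMUSG00000018893.17) lies at chr15:76899686-76940711 on the minus strand and *Gm49540* (ENSMUSG00000116272.3, lncRNA) at chr15:76882479-76900098 on the plus strand. The *Mb* transcript used here (chr15:76899687-76906987) has 3 exons and 154 codons before its stop codon. Its middle exon, chr15:76901776-76901998, is shown because it is wholly coding, shares no base with exons of *Gm49540* and carries both histidines that face the haem iron. Capitals mark their codons, for the distal histidine (residue 64 of the mature protein, which lacks the first methionine) and the proximal histidine (residue 93), 5′ to 3′ along the gene:
Mb middle exon: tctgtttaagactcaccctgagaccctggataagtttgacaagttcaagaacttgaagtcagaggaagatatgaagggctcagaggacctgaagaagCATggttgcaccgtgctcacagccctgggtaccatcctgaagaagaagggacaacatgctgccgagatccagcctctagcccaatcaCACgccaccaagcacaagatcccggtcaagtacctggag

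The 250 bases before the start of this transcript, chr15:76906988-76907237 on the minus strand, lie in no annotated exon of *Mb* or of the overlapping gene *Apol6*, and they match 1 of the 3 RefSeq promoters of *Mb* base for base. They are shown because the regulators described further on act on muscle promoters. Capitals mark the matches on either strand, which were 2 E-boxes (CANNTG, bound by myogenic factors) and 1 CCACCC box (bound by Sp1-like factors), with no overlap between them:
Mb promoter: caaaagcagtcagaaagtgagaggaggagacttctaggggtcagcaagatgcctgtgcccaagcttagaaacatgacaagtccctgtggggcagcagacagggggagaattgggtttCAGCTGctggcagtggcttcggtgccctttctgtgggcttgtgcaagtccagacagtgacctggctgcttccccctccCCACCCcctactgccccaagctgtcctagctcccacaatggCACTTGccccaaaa
Of 32851 RefSeq promoter windows of the same length (GRCm38.p6), 66.2% held an E-box and 28.1% a CCACCC box. The NFAT core (GGAAA), the hypoxia response core (ACGTG or GCGTG) and the MEF2 motif had 0 matches in this window, while 55.6%, 38.6% and 2.92% of all windows held one. A match is a description of the letters and no evidence of binding.

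*Mb* was high in Young and Fluo-4 normal fibers and low in every Fluo-4 abnormal sample. The 4 Young samples held 989, 686, 763 and 1009 TPM, the Fluo-4 normal samples 934, 1884, 1252 and 1128 TPM, and the Fluo-4 abnormal samples 471, 337.5, 166 and 211 TPM, in the order of their replicate numbers. All abnormal samples lay below all others, whereas the Young and Fluo-4 normal samples overlapped. The group means were 862 ± 161.5 TPM in Young, 1299 ± 411 TPM in Fluo-4 normal and 296 ± 137 TPM in Fluo-4 abnormal fibers (SD, n = 4 each). The order of the group means was thus Fluo-4 normal, Young and Fluo-4 abnormal.

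The mean of the Fluo-4 abnormal group was 4.39 times lower than that of Fluo-4 normal and 2.91 times lower than that of Young fibers. On the log2(TPM + 1) scale, which understates the change of low genes, the difference of abnormal minus normal means was -2.20 ± 0.29, that of abnormal minus Young -1.64 ± 0.29, and that of normal minus Young 0.56 ± 0.29 (SE from the limma fit of all 3 groups). Among 5994 protein-coding and mitochondrially-encoded genes with a mean of at least 5 TPM, *Mb* had the place 2 from the most negative abnormal minus normal difference, next to *Atp1b1* at -2.28. Against Young it stood at place 5, and for normal minus Young at place 129 from the most positive difference. Within the libraries, *Mb* ranked 66 to 124 by TPM in Fluo-4 normal, 119 to 155 in Young and 220 to 613 in Fluo-4 abnormal samples. Even in the abnormal fibers *Mb* was thus among the 613 most abundant RNAs, of 16841 to 17936 symbols above 0 per sample.

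**Figure D1:**
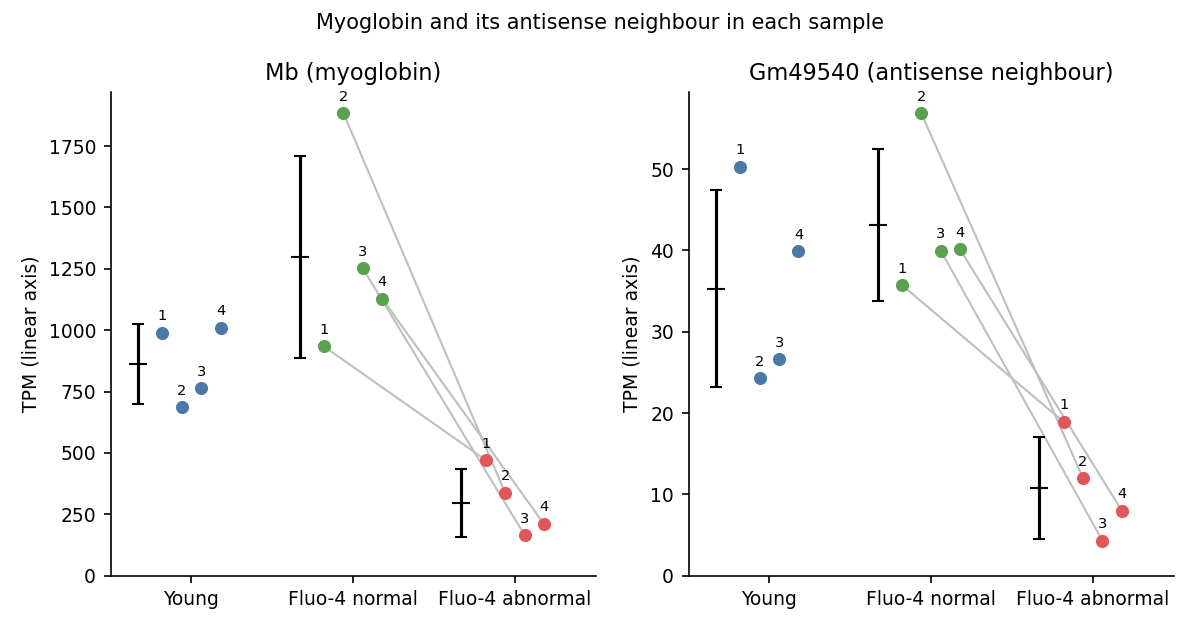
TPM of *Mb* (left) and *Gm49540* (right) in each sample, on linear axes that start at 0. Points are samples with their replicate numbers, black bars are the group mean ± SD (n = 4), grey lines join aged samples with the same number, and all 4 Fluo-4 abnormal points lie below every other point, at 166 to 471 TPM for *Mb*.

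The aged samples share replicate numbers, and samples with the same number deviated together, so the numbers were read as pairs. The limma p-values below come from a fit without these pairs, unless the replicate block is named. *Mb* was 1.98, 5.58, 7.56 and 5.36 times higher in the normal than in the abnormal sample of pairs 1 to 4. Pair 1 had the smallest difference, with the highest *Mb* of the abnormal group and the lowest of the normal group. *Ckm*, the abundant creatine kinase of muscle, gave a scale within each library: *Mb* was at 2.43% to 3.75% of the *Ckm* TPM in Young, 3.89% to 8.40% in Fluo-4 normal and 0.527% to 1.73% in Fluo-4 abnormal samples. On this scale none of the 3 groups overlapped, but *Ckm* itself was not constant. It was at 26940 to 28200 TPM in Young, 22440 to 26950 TPM in Fluo-4 normal and 27200 to 32390 TPM in Fluo-4 abnormal samples. Its aged groups thus differed in the direction opposite to *Mb*, and in plain TPM the Young and Fluo-4 normal values of *Mb* overlapped.

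*Gm49540* followed the same order at a far lower level. It was at 50.3, 24.3, 26.6 and 39.9 TPM in Young, 35.7, 56.9, 39.97 and 40.1 TPM in Fluo-4 normal, and 18.9, 12.0, 4.32 and 8.00 TPM in Fluo-4 abnormal samples. Again the abnormal samples lay below all others and the other groups overlapped. The means were 35.3 ± 12.1, 43.2 ± 9.35 and 10.8 ± 6.25 TPM (SD, n = 4 each). Its log2(TPM + 1) difference was -2.04 ± 0.34 for abnormal minus normal, -1.72 ± 0.34 for abnormal minus Young and 0.32 ± 0.34 for normal minus Young, in a limma fit of all annotated genes, since non-coding genes were not in the main fit.

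The ratio of the genes moved far less than either of them. *Gm49540* stood at 3.49% to 5.08% of the *Mb* TPM in Young, 3.02% to 3.83% in Fluo-4 normal and 2.61% to 4.02% in Fluo-4 abnormal samples, so that all 3 groups overlapped. Over the 12 samples the log2 ratio had an SD of 0.24, against 1.07 for log2 *Mb* and 1.15 for log2 *Gm49540*. The levels correlated at a Pearson r of 0.981 (Spearman rho 0.951) over 12 samples, and at 0.940 (rho 0.895) once each group's mean was subtracted, in libraries that both genes share.

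The locus itself limits how far these values can be separated. Of 15 annotated *Gm49540* transcripts, 2 run into the last exon of *Mb*, and 11 of 12 *Mb* transcripts hold bases that are exonic in *Gm49540* on the other strand. The shared stretch, chr15:76899686-76900098, spans 413 bases, of which 0 are coding. It makes up 18.1% of the exonic bases of *Mb*, 12.5% of those of *Gm49540* and 49.7% of the transcript *Gm49540*-201. The libraries keep no strand, so reads from this stretch could be counted for either gene, and their part in the *Gm49540* values was not tested. No transcript of another gene matched *Mb* or *Gm49540* at 95% identity or more over at least 100 bases. The annotation behind the deposited values is not given in the sources used here.

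**Figure D2:**
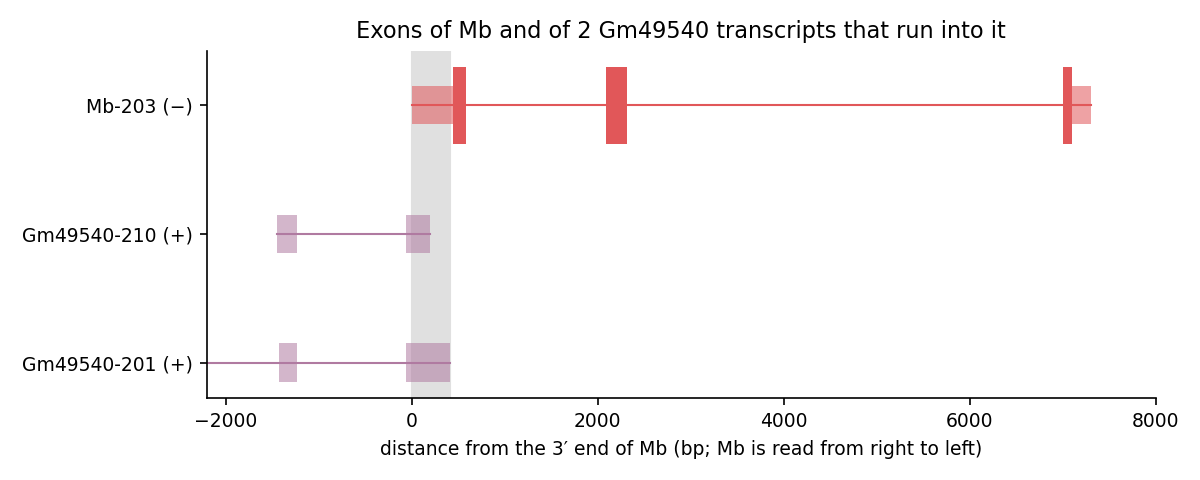
Exons of the *Mb* transcript whose exon is printed above and of the *Gm49540* transcripts 201 and 210, drawn to scale by distance in base pairs from the 3′ end of *Mb*, with tall boxes for coding sequence, low boxes for non-coding exons and lines for introns. The grey band is the stretch of 413 bases that is exonic in both genes, and it covers no coding box.

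The nearest genes around *Mb* with a mean of at least 1 TPM in a group are *Apol6*, *1110038F14Rik* and *Rbfox2*. *Apol6*, an apolipoprotein L gene, overlaps *Mb* on the plus strand (chr15:76905914-76943197) and shares 287 exonic bases with *Mb*, of which 0 are coding in *Mb*. Without strand, reads of *Mb*, at 166 to 1884 TPM, could be counted for *Apol6* where they overlap, and their part in its values was not tested. *Apol6* was at 2.96 to 3.46 TPM in Young, 2.67 to 5.04 TPM in Fluo-4 normal and 0.985 to 2.33 TPM in Fluo-4 abnormal samples, and fell by 0.75 ± 0.21 between the aged groups (limma adjusted p = 0.0369). Its call was lost under 12 of 20 alternatives, among them the replicate block (limma adjusted p = 0.0847), the share covariate and leaving out any of Young 1, 2 or 3, normal 2 or 3, or abnormal 2, 3 or 4. *1110038F14Rik* (chr15:76832643-76837216), on the other side of *Gm49540*, had means of 13.7, 13.7 and 14.4 TPM in Young, Fluo-4 normal and Fluo-4 abnormal fibers, and its difference of 0.07 ± 0.09 did not pass (limma adjusted p = 0.652). *Rbfox2* (chr15:76963189-77191303), which encodes a splicing factor, had means of 4.72, 4.71 and 6.80 TPM, and its difference of 0.43 ± 0.16 did not pass (limma adjusted p = 0.121), though it did without abnormal sample 4.

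The second value used in the choice was the share of *Myh1* and *Myh2* in the summed TPM of the adult myosin heavy chain genes *Myh1*, *Myh2*, *Myh4* and *Myh7*. *Myh4* made up 93.7% to 99.7% of this sum, and *Myh7* was at no more than 0.205 TPM in any sample. The *Myh1* and *Myh2* share was 2.69%, 1.45%, 1.67% and 3.12% in the Young samples, 0.771%, 6.28%, 4.79% and 3.15% in the Fluo-4 normal samples, and 0.633%, 1.06%, 0.3375% and 0.435% in the Fluo-4 abnormal samples. The abnormal samples lay below all Young samples, but normal sample 1 lay within the abnormal range. Nearly all of this share was *Myh1*, at 44.3 to 541.5 TPM, whereas *Myh2* was at 2.38 to 34.6 TPM. Of the exonic bases of *Myh1*, 10.2% lie opposite exons of the antisense gene *Myhas*, as do 5.78% of those of *Myh4*, and reads cannot be told apart there. *Myhas* was at 186 to 221 TPM in Young, 143 to 176 TPM in Fluo-4 normal and 120 to 186 TPM in Fluo-4 abnormal samples. In the abnormal samples *Myh1* itself was at 44.3 to 147 TPM. The part of *Myhas* reads in the share was not tested.

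*Mb* was higher where this share was higher. Over the 12 samples, log2(*Mb* TPM + 1) and the share correlated at a Pearson r of 0.806 and a Spearman rho of 0.944, and r was 0.779 without the samples farthest from the median share, Fluo-4 normal 2 and 3. With group means subtracted, r was 0.613 and rho 0.692. These points share the scaling of their libraries, and the aged samples are paired, so they are not 12 independent points. The order of the samples by *Mb* was the order by share in the Young group and in the Fluo-4 normal group, and in the abnormal group samples 1 and 2 changed places. The share of *Myh1* alone gave an r of 0.807 and that of *Myh2* alone 0.515. With *Mb* in TPM in place of log2, r with the combined share was 0.924 over the 12 samples.

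Samples with a similar share did not always hold similar *Mb*. Normal sample 1, with a share of 0.771%, had 934 TPM of *Mb*, while the abnormal samples 1 and 2, with shares of 0.633% and 1.06%, had 471 and 337.5 TPM. With the share as a covariate in the fit, the abnormal minus normal difference of *Mb* was -1.55, against -2.20 without it, and that of *Gm49540* was -1.52, against -2.04. The share entered this fit linearly against log2(TPM + 1). It also differed between the groups, so the fit cannot fully separate the share from the group. A call lost with this covariate does not show that the difference of a gene depended on the share. In pair 1, where the share of the abnormal sample differed by -0.138 percentage points, log2 *Mb* differed by -0.99. In pairs 2 to 4, where it differed by -5.22, -4.45 and -2.72 points, log2 *Mb* differed by -2.48, -2.91 and -2.42.

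**Figure D3:**
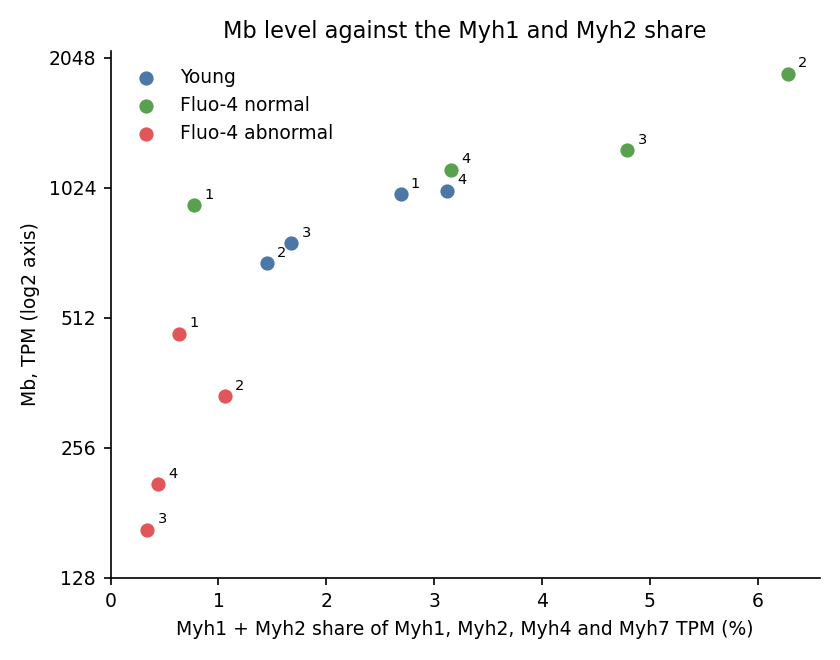
*Mb* in TPM (log2 axis) against the *Myh1* and *Myh2* share of adult myosin heavy chain TPM (%), with a point for each of the 12 samples, coloured by group and labelled with the replicate number. *Mb* is higher where the share is higher, and Fluo-4 normal 1 (0.771%, 934 TPM) lies above the abnormal samples 1 and 2 at a similar share.

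The genes whose levels followed *Mb* most closely were sought among 5993 protein-coding and mitochondrially-encoded genes with a mean of at least 5 TPM, by the Pearson r of log2(TPM + 1) over the 12 samples. The 10 highest r ran from 0.982 to 0.963. Of them, *Ndufa9* and *Ndufs7* encode subunits of respiratory complex I, *Sdhb* of complex II, *Uqcrfs1* of complex III and *Atp5c1* of ATP synthase. *Idh3g* and *Mdh1* encode dehydrogenases, *Ppif* the cyclophilin of the mitochondrial permeability transition, *Atp1b1* a beta subunit of the sodium pump, and *Fxyd6* a regulator of that pump. As they were picked for likeness to *Mb*, their differences between groups carry no test.

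Most of these genes varied over a narrower range than *Mb*. *Sdhb* had a mean of 738 ± 58.2 TPM in Young, 781 ± 58.5 TPM in Fluo-4 normal and 501 ± 49.4 TPM in Fluo-4 abnormal fibers (SD, n = 4), a log2 difference of -0.64 for abnormal minus normal. *Uqcrfs1*, with r = 0.982 the closest, had a difference of -0.54. *Atp1b1* was at 27.2, 25.8, 24.8 and 28.8 TPM in Young, 42.0, 48.7, 45.9 and 42.6 TPM in Fluo-4 normal and 13.5, 10.8, 5.22 and 6.39 TPM in Fluo-4 abnormal samples. Its 3 groups did not overlap. *Fxyd6* lay between, at 21.2 ± 3.43, 30.7 ± 6.29 and 11.5 ± 4.10 TPM and a difference of -1.39. The sodium pump genes thus had the largest differences of the 10.

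With each group's mean subtracted, the highest r ran from 0.929 to 0.894, and 5 of the 10 genes were also among the 10 above: *Sdhb*, *Fxyd6*, *Atp1b1*, *Ndufa9* and *Uqcrfs1*. The others included *Dlat*, a subunit of pyruvate dehydrogenase, *Sucla2*, a succinyl-CoA ligase subunit, *Epdr1* and *Kbtbd3*. *Dlat* had means of 93.3 ± 3.98 TPM in Young, 83.0 ± 10.5 TPM in Fluo-4 normal and 59.7 ± 9.42 TPM in Fluo-4 abnormal fibers (SD, n = 4), so that its order of Young and Fluo-4 normal was the reverse of that of *Mb*. Exonic overlap with genes on the other strand was 49.4% for *Ndufs7*, 37.2% for *Ppif*, 33.7% for *Idh3g* and 18.1% for *Atp1b1*.

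**Figure D4:**
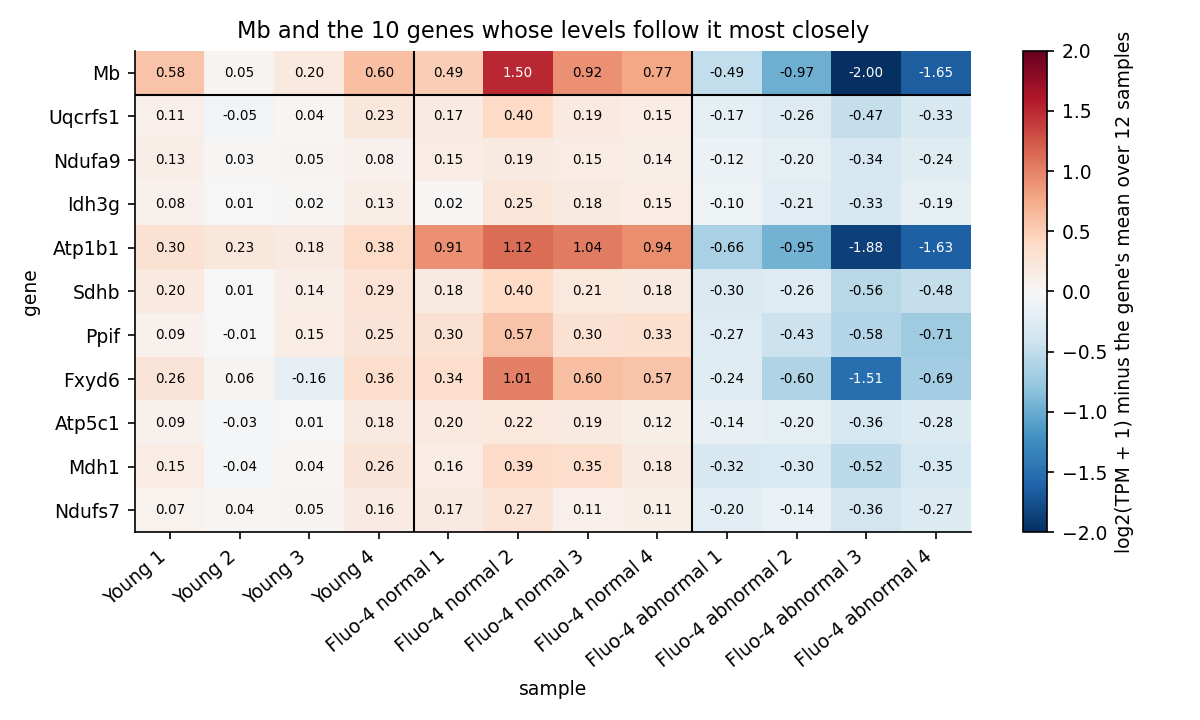
Levels of *Mb* (top row) and of the 10 genes with the highest correlation with it, as log2(TPM + 1) minus the gene's mean over the 12 samples, with a column for each sample. In all rows the Fluo-4 normal samples are above and the Fluo-4 abnormal samples below the gene's mean, and *Atp1b1* and *Fxyd6* have the deepest colours after *Mb*.

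Genes that supply, control or work beside myoglobin were collected in 10 lists of 148 genes, of which 146 were tested. In the comparison of Fluo-4 abnormal with Fluo-4 normal fibers, 18 were higher and 23 lower at a limma adjusted p under 0.05. Of all 14430 genes tested 9.35% passed, 7.36% higher and 1.99% lower. The median difference was 0.06 over the 146 genes and 0.10 over all genes. With TMM-type scaling factors, which moved the median of all genes to 0, the lists had 4 higher and 30 lower genes, and all genes 310 higher and 545 lower in place of 1062 and 287. The median over the lists was then -0.11, that of haem synthesis -0.12 in place of 0.07 and that of fast fiber genes -0.02 in place of 0.21. Medians of the iron list and of the myoglobin reduction list were near 0. Both turned sign without normal sample 2 or abnormal sample 3 and with the share covariate. The iron median also turned without normal sample 3 or abnormal sample 4, and the reduction median with a filter of 5 TPM. Without abnormal sample 2 the lists had 25 calls in place of 41. The lists were chosen with earlier results of these samples known, and their counts are not independent evidence of a direction.

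**Figure D5:**
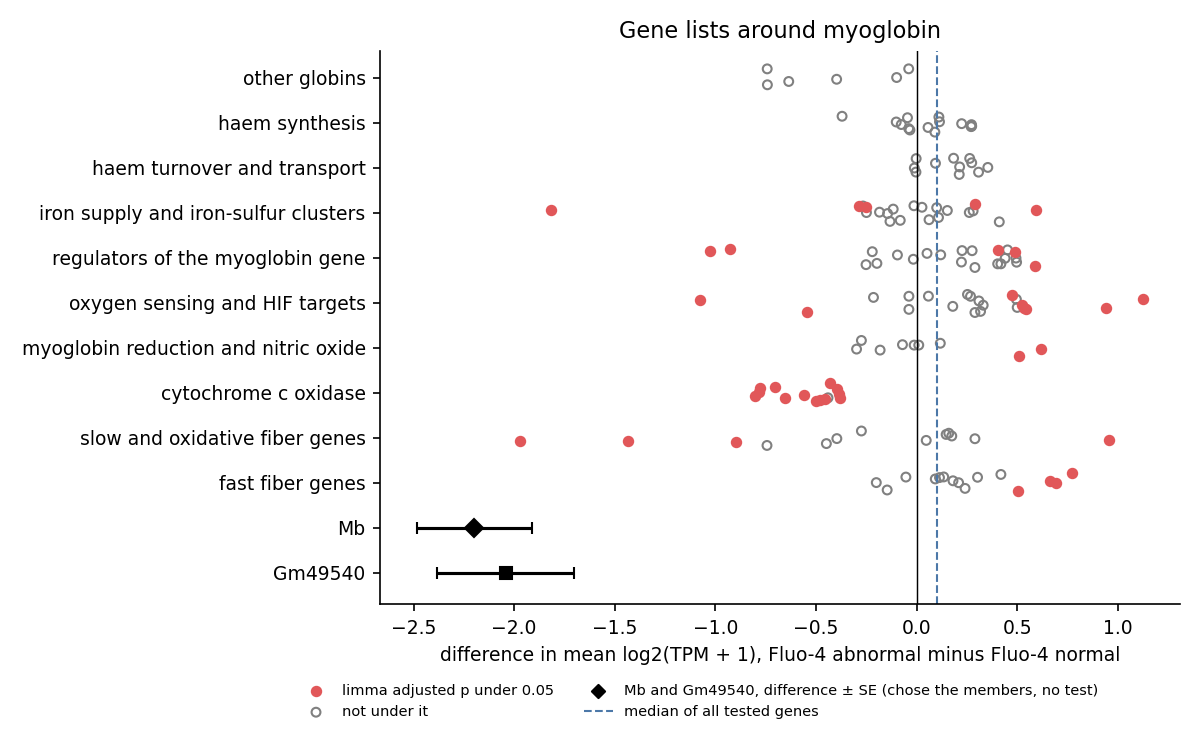
Difference in mean log2(TPM + 1), Fluo-4 abnormal minus Fluo-4 normal, for each tested gene of the 10 lists (filled red, limma adjusted p under 0.05; open grey, not), with *Mb* and *Gm49540* and their SE below (n = 4 per group). Points are spread vertically within a list to keep them apart, the dashed line is the median of all tested genes (0.10), and 13 of the 14 cytochrome c oxidase genes are red and left of 0, none as far as *Mb* at -2.20.

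Cytochrome c oxidase is the enzyme that passes electrons to oxygen in the mitochondria. All 14 genes of this list had negative differences and 13 fell, with a median of -0.49. They stood between -0.80 and -0.38, so that *Mb* lay outside their range. *Cox6c* was at 3704 to 4180 TPM in the Fluo-4 normal and 2388 to 2704 TPM in the Fluo-4 abnormal samples and fell by 0.66 ± 0.08 (limma adjusted p = 0.000773). *mt-Co2*, which is encoded in mitochondrial DNA, was at 8618 to 10880 and 4691 to 6724 TPM and fell by 0.80 ± 0.12 (limma adjusted p = 0.00222). Neither gene's groups overlapped, and near-identical pseudogenes of both could share their reads. *Cox5b*, named after its values were seen as the exception, had a difference of -0.44 ± 0.14 (limma adjusted p = 0.06, and 0.0202 with the replicate block). With the *Myh1* and *Myh2* share as a covariate 7 genes fell in place of 13, while the median, at -0.53, was no smaller in size.

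Among 13 slow and oxidative fiber genes, 3 fell and 1 rose, with a median of -0.28 that turned to 0.05 without normal sample 2 and to 0.09 with the *Myh1* and *Myh2* share as a covariate. Many of these genes were near the floor: *Myh7*, *Myl3*, *Tnnt1*, *Tnni1* and *Tnnc1* had means of no more than 0.317 TPM in any group. The median was the value of *Tnnt1* and says little about slow or oxidative expression. With a filter of 5 TPM, 4 genes were tested and 3 fell, with a median of -1.17. *Fabp3*, a fatty acid binding protein of heart and oxidative muscle, was at 506 to 716 TPM in Fluo-4 normal and 280 to 373 TPM in Fluo-4 abnormal samples and fell by 0.90 ± 0.14 (limma adjusted p = 0.00281). Of its exonic bases 38.5% lie opposite exons of other genes, and it has a near-identical pseudogene. *Cd36*, a fatty acid carrier of the membrane, was at 38.1 to 73.3 and 12.5 to 27.0 TPM and fell by 1.43 ± 0.23 (limma adjusted p = 0.00334). Its call was lost with the share covariate (limma adjusted p = 0.0668).

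The other genes of this list that passed are named after their values were seen. *Lpl*, lipoprotein lipase, was at 27.9 to 98.2 TPM in Fluo-4 normal and 6.11 to 27.6 TPM in Fluo-4 abnormal samples and fell by 1.97 ± 0.40, the most negative difference in the lists (limma adjusted p = 0.00951, and 0.0657 with the replicate block). *Atp2a2*, the slow calcium pump, rose by 0.96 ± 0.25, from a mean of 2.02 to 4.86 TPM (limma adjusted p = 0.0296). That call was lost without normal sample 1 or 2 or abnormal sample 2, 3 or 4. *Cd36* is also expressed by capillary and fat cells, and *Lpl* by fat cells. The 6 endothelial markers summed to 7.24–31.3 TPM in Fluo-4 normal and 3.37–15.3 TPM in Fluo-4 abnormal samples. Of the 5 adipocyte markers *Adipoq*, *Plin1*, *Cidec* and *Lep* were at 0 in every sample. The last, *Cfd*, was above 0 in Fluo-4 normal samples only, at up to 2.77 TPM. The part of endothelial and fat cells in these differences was not tested. With the share covariate 2 genes of the list passed.

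Among 15 fast fiber genes 4 rose and 0 fell, with a median of 0.21. *Mybpc2*, fast myosin binding protein C, was at 1683 to 1873 TPM in Fluo-4 normal and 2477 to 3088 TPM in Fluo-4 abnormal samples and rose by 0.69 ± 0.08 (limma adjusted p = 0.000517). *Casq1*, the calcium store protein of fast fibers, was at 2154 to 2458 and 3034 to 3443 TPM and rose by 0.50 ± 0.07 (limma adjusted p = 0.00174). In Young samples *Casq1* was at 3522 to 3867 TPM. *Actn3*, named after its values were seen, also rose. The 4 calls include *Myh4*, the main term of the share used in the choice, so its call is no test and supports nothing. With TMM-type factors 1 gene rose, and the limma adjusted p of *Casq1* was 0.2.

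Regulators of the *Mb* gene moved in both directions: 3 of 22 rose and 2 fell, with a median of 0.25. *Rcan2*, an inhibitor of calcineurin, was at 12.6 to 21.8 TPM in Fluo-4 normal and 6.69 to 8.56 TPM in Fluo-4 abnormal samples and fell by 1.03 ± 0.16 (limma adjusted p = 0.00281). *Esrrg*, a nuclear receptor that drives oxidative genes, was at 1.44 to 3.14 and 0.443 to 0.860 TPM and fell by 0.93 ± 0.18 (limma adjusted p = 0.00823). Both calls were lost with the share covariate (limma adjusted p = 0.0536 and 0.137), which is itself tied to the groups. The genes that rose, named after their values were seen, were the calcineurin subunits *Ppp3ca* (0.59 ± 0.12) and *Ppp3r1* (0.40 ± 0.10) and the activator *Mef2c* (0.49 ± 0.13), with limma adjusted p of 0.0116, 0.0242 and 0.0304. With TMM-type factors 1 regulator rose and 2 fell, and those of *Ppp3r1* and *Mef2c* were 0.199 and 0.119. The call of *Mef2c* was lost without normal sample 1 or 4 or abnormal sample 2 or 3, and that of *Ppp3r1* without normal sample 1 or abnormal sample 2. *Ppp3r1* had means of 55.6, 43.1 and 57.3 TPM in Young, Fluo-4 normal and Fluo-4 abnormal fibers. *Ppargc1a*, which encodes PGC-1α and is named after its values were seen, had means of 14.5, 16.0 and 13.7 TPM in Young, Fluo-4 normal and Fluo-4 abnormal fibers, and its difference of -0.20 ± 0.18 did not pass (limma adjusted p = 0.526). The 5 calls became 3 without normal sample 1 or abnormal sample 2 and 8 without normal sample 3.

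Of 21 tested genes of oxygen sensing and HIF targets, 6 rose and 2 fell, with a median of 0.31. *Pfkfb3*, an activator of glycolysis, was at 25.2 to 64.6 TPM in Fluo-4 normal and 73.5 to 118 TPM in Fluo-4 abnormal samples and rose by 1.13 ± 0.24 (limma adjusted p = 0.0113). In Young samples *Pfkfb3* was at 72.8 to 104 TPM. *Egln2*, a prolyl hydroxylase that marks HIF proteins for decay, was at 46.4 to 53.4 and 56.2 to 78.03 TPM and rose by 0.48 ± 0.10 (limma adjusted p = 0.0134). In Young samples *Egln2* was at 54.3 to 67.4 TPM. Of its exonic bases 20.8% lie opposite *Cyp2t4*, and its limma adjusted p was 0.0614 with the replicate block, 0.227 with TMM-type factors and 0.098 with the share covariate. The genes that fell, named after their values were seen, were *Egln3*, a hydroxylase gene that HIF induces, and *Epas1*, which encodes HIF-2α. *Egln3* had means of 9.01, 20.8 and 9.53 TPM in Young, Fluo-4 normal and Fluo-4 abnormal fibers and fell by 1.08 ± 0.27 (limma adjusted p = 0.0256). That call was lost without normal sample 2 or 4 or abnormal sample 1 or 3, and that of *Epas1* (limma adjusted p = 0.0395) under 13 of 20 alternatives. The 8 calls of the list became 5 with the replicate block and 3 with TMM-type factors. Leaving out normal sample 1, 2 or 4 gave 4, 5 and 4, and leaving out abnormal sample 2, 3 or 4 gave 3, 5 and 4.

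None of 14 haem synthesis genes and none of 11 genes of haem turnover and transport passed in this comparison by limma, and their medians were 0.07 and 0.21, which became 0.01 for synthesis without abnormal sample 2 and 0.08 for turnover without normal sample 1. At an unadjusted p under 0.05, 3 and 2 of them did, a count given without the share of all genes at that threshold and not read further. *Alas1*, the rate-limiting enzyme of haem synthesis, was at 117 to 150 TPM in Fluo-4 normal and 82.5 to 122 TPM in Fluo-4 abnormal samples, with a difference of -0.37 ± 0.11 (limma adjusted p = 0.0555). It passed under 6 of 21 alternatives, with TMM-type factors at 0.0123, and without normal sample 3 or abnormal sample 1. *Slc48a1*, a haem transporter, had a difference of 0.21 ± 0.09 (limma adjusted p = 0.168), and 82.1% of its exonic bases lie opposite *Hdac7*. *Fech*, which inserts iron into haem and is named after its values were seen, was at 104 to 138 TPM in Fluo-4 normal and 138 to 170 TPM in Fluo-4 abnormal samples, with a difference of 0.27 ± 0.10 (limma adjusted p = 0.101, and 0.0487 with the replicate block).

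Of 21 genes of iron supply and iron-sulfur clusters, 2 rose and 3 fell, with a median of -0.01. *Slc40a1*, ferroportin, which exports iron from cells, was at 7.82, 22.4, 18.2 and 13.6 TPM in Fluo-4 normal and 4.13, 4.52, 3.35 and 2.05 TPM in Fluo-4 abnormal samples. The groups did not overlap, and it fell by 1.82 ± 0.27 (limma adjusted p = 0.00222). *Fth1*, the heavy chain of the iron store ferritin, was at 3883 to 4185 and 4562 to 5081 TPM and rose by 0.29 ± 0.07 (limma adjusted p = 0.0197). In Young samples *Fth1* was at 4408 to 4661 TPM. Of its exonic bases 41.5% lie opposite *Gm36913*, and with TMM-type factors its limma adjusted p was 0.835. The call of *Fth1* was also lost without normal sample 2 or abnormal sample 2 or 4. The other genes that passed, named after their values were seen, were the iron importer *Slc11a2*, which rose (0.59 ± 0.14, limma adjusted p = 0.0212), and the cluster assembly genes *Glrx5* (-0.29 ± 0.07, limma adjusted p = 0.0274) and *Isca2* (-0.25 ± 0.07, limma adjusted p = 0.0444, and 0.057 with the replicate block), which fell. Each of these calls was lost without normal sample 2, abnormal sample 3 or abnormal sample 4, that of *Slc11a2* also without abnormal 2, that of *Glrx5* also without normal 1, and that of *Isca2* without any sample but Young 4, normal 3 and abnormal 1. The 5 calls became 8, all lower, with TMM-type factors and 1 with the share covariate. They became 1 without normal sample 2 or abnormal sample 4, 2 without abnormal sample 2 or 3, and 3 without normal sample 1.

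Other globins and the enzymes that reduce myoglobin completed the lists. Of 6 tested globin genes 0 passed by limma, at an adjusted or at an unadjusted p under 0.05, and their median was -0.52. It was -0.14 without abnormal sample 3, -0.20 without normal sample 2, -0.78 without normal sample 1, -0.79 without abnormal sample 4, and 0.14 with the share covariate. *Hba-a1*, an alpha globin of red blood cells whose reads cannot be separated from those of its near-identical copy *Hba-a2*, was at 9.96 to 28.9 TPM in Young, 25.1 to 106 TPM in Fluo-4 normal and 7.16 to 54.2 TPM in Fluo-4 abnormal samples (-0.74 ± 0.55, limma adjusted p = 0.434). The haemoglobin genes also belong to the erythroid marker list, whose 7 genes summed to 33.1–121, 118.5–482 and 44.4–236 TPM in these groups, with the defining marker *Slc4a1* at 0 in every sample. The part of blood cells in the *Mb* values was not tested. Among 9 genes of myoglobin reduction and nitric oxide 2 rose, with a median of -0.01. *Cyb5r1* rose from a mean of 43.7 to 62.7 TPM (0.51 ± 0.10, limma adjusted p = 0.00948, and 0.0562 with TMM-type factors). Its mean in Young fibers was 57.8 TPM. *Cyb5r3*, which encodes cytochrome b5 reductase, an enzyme that reduces oxidised haem proteins, rose from 13.4 to 20.8 TPM (0.62 ± 0.18, limma adjusted p = 0.0475). It failed the threshold under 16 of 21 alternatives, among them leaving out any of the Young samples.

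Against Young fibers, Fluo-4 abnormal fibers had 5 genes of the 146 higher and 21 lower. Of all genes tested 8.5% passed, 6.09% higher and 2.41% lower, and the medians were 0.04 over the lists and 0.07 over all genes. Cytochrome c oxidase held 9 of the lower genes, iron supply and iron-sulfur clusters 6, the regulators 3, slow and oxidative fiber genes 2 and fast fiber genes 1. *Slc40a1* fell by 1.41 ± 0.27 (limma adjusted p = 0.00664), *Rcan2* by 1.28 ± 0.16 (limma adjusted p = 0.000522) and *Fabp3* by 0.63 ± 0.14 (limma adjusted p = 0.0152). The 5 higher genes were *Ppp3ca*, *Mef2c*, *Actn3*, *Mybpc2* and, named after its values were seen, *Pfkfb4*. Others that rose between the aged groups did not pass, among them *Pfkfb3*, *Egln2*, *Cyb5r1*, *Ppp3r1*, *Fth1* and *Casq1*. Their limma adjusted p against Young were 0.612, 0.334, 0.596, 0.877, 0.416 and 0.149, in that order. The abnormal samples are shared with the comparison above, so both sets of values rest on the same libraries. Leaving out Young sample 4, Young sample 1 or abnormal sample 2 gave 11, 15 and 17 calls in place of 26. With TMM-type factors 2 were higher and 24 lower.

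Between Fluo-4 normal and Young fibers, in which *Mb* overlapped, 2 of the 146 genes passed, and 1.15% of all genes tested did, 0.561% higher and 0.589% lower. *Casq1* fell by 0.68 ± 0.07 in the normal fibers of aged mice (limma adjusted p = 0.000421). *Cd36* rose by 1.05 ± 0.23 at the edge of the threshold (limma adjusted p = 0.04997). The list of *Cd36* had 0 calls when any Young sample, normal sample 2, 3 or 4, or abnormal sample 1, 2 or 4 was left out. The same held with no filter, with all annotated genes and with the share covariate. Leaving out single samples gave 1 to 4 calls in all. At an unadjusted p under 0.05, 33 of the 146 genes passed. The share of all genes at that threshold is not given here, so this count is not read as a result about the lists. The other 8 lists had 0 calls by limma in this comparison.

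The fibers carried the markers of their label. All 6 myofiber markers summed to 61360–84270 TPM in the samples. Markers of other cells were low beside these: fibroblast markers summed to at most 82.4 TPM, smooth muscle and pericyte to 64.6, satellite cell to 15.1 and Schwann to 7.98 TPM in any sample. The immune list summed to 1.80–3.02 TPM in Young, 5.68–15.5 TPM in Fluo-4 normal and 9.32–16.2 TPM in Fluo-4 abnormal samples. Its sums in the aged groups overlapped and lay above those of the Young group. The part of these cells in the differences was not tested.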

How the data were processed

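The authors extracted RNA from EDL fibers (TRIzol), made SMART-Seq v4 libraries from 10 ng, which keep no strand, and processed the reads with DRAGEN on GRCm39. They deposited TPM per gene and sample, each sample summing to 1000000, and sequencing depth is unknown. Repeated symbols (114) were summed, leaving 55367. Groups and replicate numbers came from the sample labels. limma 3.58.1 (R 4.3.3) was fitted to log2(TPM + 1) of all 12 samples, with a mean-expression trend, for 14430 protein-coding and mitochondrially-encoded genes with a mean of at least 0.02 TPM in a group, with two-sided p-values adjusted by Benjamini-Hochberg over all of them.

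The members and lists were chosen with earlier results of these data known. Genes named were *Mb*, *Gm49540*, the adult myosin genes, the nearest genes with a mean of at least 1 TPM, in each list the 2 genes with the smallest adjusted p under 0.05 (or the 1 with the smallest p where none passed), and the 10 genes most like *Mb* in each measure, of which 1 is not reported here. Near-identical copies were sought with blastn 2.17.0+. Sequences came from GENCODE vM39 (GRCm39) and RefSeq (GRCm38.p6). Symbols of 49848 rows matched GENCODE, 2527 a RefSeq symbol and 118 a synonym, and 2874 matched none. Same-numbered aged samples correlated in their deviations from group means at 0.438, 0.375, 0.430 and 0.302 over 5994 genes (different numbers, -0.365 to 0.234), so the numbers were taken as pairs. The pairing is read from the data, since the labels give only the numbers. The main fit had no replicate block, so its SE and p-values ignore this pairing. Alternatives were TMM-type factors, scaling without mitochondrially-encoded genes, a pseudocount of 0.1, no filter, a filter of 5 TPM, all annotated genes, the replicate block, fits of only the groups compared, the share covariate and leaving out each sample. The fit was tested on simulated data.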

Additional observations from a re-analysis of the deposited data

Results flagged for a closer look

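In 13 of 126 groups of 4 samples, over 42 measures, the highest or lowest sample stood apart by Dixon's 95% criterion, which chance meets in about 1 in 20 groups. *Mb*, *Gm49540* and the combined *Myh1* and *Myh2* share were not among them. The *Myh2* share was 0.164% in Young 3 (others 0.0557% to 0.0701%) and 0.377% in Fluo-4 normal 2 (others 0.0378% to 0.0576%), the sample with the highest *Mb*. Fluo-4 normal 2 was also high in *Hba-a1* at 106 TPM (others 25.1 to 30.5 TPM), *Uqcrfs1* at 841 TPM (others 706.5 to 726 TPM), *Sdhb* at 868 TPM (others 745 to 764.5 TPM) and *Ppif* at 35.3 TPM (others 29.2 to 29.8 TPM).

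Among Young samples, *Rbfox2* was low in Young 3 at 4.49 TPM (others 4.77 to 4.82 TPM), *Esrrg* in Young 4 at 1.03 TPM (others 1.46 to 1.51 TPM), *Cd36* in Young 2 at 19.6 TPM (others 29.1 to 29.98 TPM) and *Dlat* in Young 2 at 87.3 TPM (others 94.6 to 95.7 TPM). *Pfkfb3* was high in Young 1 at 104 TPM (others 72.8 to 77.2 TPM). In the abnormal group, *Fabp3* was high in sample 1 at 373 TPM (others 280 to 286 TPM), and *1110038F14Rik* was low in sample 3 at 13.4 TPM (others 14.6 to 14.9 TPM).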

How the results depend on the processing

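The log2 differences of *Mb* and *Gm49540* kept their direction under every alternative run. Leaving out single samples gave -2.46 to -1.96 for *Mb* abnormal minus normal, -1.90 to -1.40 against Young and 0.37 to 0.70 for normal minus Young, and for *Gm49540* -2.35 to -1.71, -2.03 to -1.39 and 0.17 to 0.51. With the replicate block for the pairs, *Mb* was at -2.20, 41 list genes passed, and 1150 of all genes in place of 1349. Among the genes named it changed the calls of *Cox5b*, *Lpl*, *Egln2*, *Epas1*, *Apol6*, *Fech* and *Isca2*. The share covariate gave -1.55 for *Mb* and 25 list calls between the aged groups, and a fit of only those groups gave 26. Leaving out single samples gave 25 to 44 calls, 11 to 36 for abnormal against Young and 1 to 4 for normal against Young, where TMM-type factors gave 5, a filter of 5 TPM 7 and all annotated genes 1 in place of 2. The r of *Mb* with the share was 0.769 to 0.875 without single samples and 0.515 for *Myh2* alone. The share differences were -4.12 to -2.29, -1.88 to -1.32 and 0.672 to 2.51 points. Signs turned for *Slc48a1* (-0.01) and *1110038F14Rik* (-0.14) with TMM-type factors, and for *Hba-a1* (0.14) and *Ppargc1a* (0.035) with the share covariate, none of which passed a test. The causes were not tested. Of 14 list genes named by rule that passed, 6 kept the call in all alternatives. Unknown depth limits what low genes can show.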
